A study of Caenorhabditis elegans with 2 samples.

Results

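The genes described here encode subunits of the mitochondrial respiratory chain and of the ATP synthase, with the factors that assemble complex IV, and the measurement is binding of the Hox protein EGL-5 at their promoters. Members were all nuclear protein-coding genes of Caenorhabditis elegans whose symbol starts with nuo-, cox-, cyc-, sdha-, sdhb- or atp-. There were 32 of them among 19973 nuclear protein-coding genes. By symbol, 6 belonged to complex I, 3 to complex II, 3 to complex III and cytochrome c, 7 to the structural subunits of complex IV, 8 to complex IV assembly factors and 5 to the ATP synthase.

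ChIP-seq (sequencing of the DNA that is precipitated with a chromatin protein) was done on whole larvae of the L3 stage, of mixed sex, with egl-5 given as the antibody target. The strain, OP54, carries unc-119(ed3) on chromosome III and the insertion wgIs54, from which a fusion of EGL-5 with eGFP is made, and the labels give 2 biological replicates of this 1 group with no control group. No source used here says what drives the transgene or how many copies wgIs54 holds, and a peak from whole larvae cannot be given to a tissue. The authors deposited a thresholded list of 2570 peaks, called by IDR, the irreproducible discovery rate, which compares the ranks of peaks in replicates, a pooled list of 28619 peaks and 30000 peaks for each replicate; read depth is unknown.

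The respiratory chain passes electrons from NADH, at complex I, and from succinate, at complex II, through complex III and cytochrome c to oxygen at complex IV, and the proton gradient that this builds drives the ATP synthase. Most subunits are encoded in the nucleus and imported, and the rest are encoded by mitochondrial DNA, which was not part of the gene set. EGL-5, a Hox protein related to Abdominal-B of the fly, patterns the tail region of the worm, whereas the respiratory chain serves cells of all tissues. In this species many genes lie in operons, in which closely spaced genes on the same strand are transcribed from a shared upstream promoter.

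The sequences under the 5 highest-scoring member summits on chromosomes II, III, IV, V and X show what the bound regions look like. Each line gives 101 bases centred on the summit (the base of highest signal in a peak), read in the direction of the gene, which is the plus strand for all 5, from the RefSeq copy of WBcel235 (called ce11 in genome browsers). They lie at chrIII:10218731-10218831 for cox-14, chrIII:12905126-12905226 for cox-5A, chrII:11097501-11097601 for nuo-1, chrIII:5228120-5228220 for atp-2 and chrIII:2785995-2786095 for cox-6B. None of the 5 overlaps an annotated coding exon or untranslated region. Capitals mark the longest run of letters that any pair of the 5 shares.
cox-14: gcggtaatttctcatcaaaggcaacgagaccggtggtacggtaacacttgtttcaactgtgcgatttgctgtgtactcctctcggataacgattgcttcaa
cox-5A: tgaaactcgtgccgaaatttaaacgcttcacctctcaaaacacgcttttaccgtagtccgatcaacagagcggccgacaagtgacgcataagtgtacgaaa
nuo-1: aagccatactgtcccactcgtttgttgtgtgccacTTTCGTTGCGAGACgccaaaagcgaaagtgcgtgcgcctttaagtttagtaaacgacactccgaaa
atp-2: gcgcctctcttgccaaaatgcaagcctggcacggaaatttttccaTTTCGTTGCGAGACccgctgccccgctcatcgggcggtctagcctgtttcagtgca
cox-6B: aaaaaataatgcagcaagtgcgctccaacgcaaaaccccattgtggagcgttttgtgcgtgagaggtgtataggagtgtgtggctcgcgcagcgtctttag

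The promoters of nuo-1 and atp-2 shared the run of 14 letters TTTCGTTGCGAGAC, on the same strand relative to the gene. It stood from -15 to -2 bases from the summit at nuo-1 and from -5 to 8 at atp-2. In the other pairs of the 5 the longest shared run was 6 to 9 letters. Counted on both strands within 50 bp of the summit, the run lay in 5 of all 1389 thresholded summits in promoter windows (0.360%), and in 11 of 29314 regions of the same length centred 217 bp upstream of every annotated start (0.0375%). Its last 10 letters, GTTGCGAGAC, lay in 17 of the 1389 (1.22%) and in 41 of the 29314 (0.140%). The 217 bp is the median distance of the member summits. Regions at neighbouring starts of the same gene overlap, so the 29314 are not separate regions. The run was picked after the sequences were seen. Both counts over the 1389 include the nuo-1 and atp-2 summits that it came from, so these shares are a description.

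Short motifs were also searched: a GA repeat, an E-box and letters of Hox-type sites. The repeat GAGAGA lay within 50 bp of 1 of the 12 member summits (8.33%), that of sdha-1, and of 24.8% of all thresholded promoter summits. The E-box CAGCTG, the Hox-type hexamer TTTATG and the Hox and Pbx-type site TGATTNAT lay at 0 of the 12, beside 5.33%, 7.99% and 2.23% of all promoter summits. With 100 bp on either side, GAGAGA was at cox-5A and sdha-1 (16.7% beside 38.5%) and the other 3 were at 0. These counts were made on both strands and say only which letters were in the window. The GC content of the 101 bases had a median of 49.5% at the member summits and 46.5% at all promoter summits.

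Of the 32 members, 12 (37.5%, exact Clopper-Pearson 95% interval 21.1 to 56.3) had a thresholded summit in the promoter window, which took in 1000 bp before and 200 bp after each protein-coding transcript start. Among all nuclear protein-coding genes the share was 8.92%. The members were atp-1, atp-2, atp-3, cox-4, cox-5A, cox-5B, cox-6B, cox-6C, cox-14, cyc-1, nuo-1 and sdha-1. A further 15 had a summit in the window in the pooled list but not in the thresholded list. The pooled list mixes peaks and background and marked 40.1% of all genes. The remaining 5, nuo-5, sdha-2, cyc-2.2, cox-17 and cox-19, had none in the thresholded, pooled or replicate lists. No test was run over the members, which were chosen with earlier results of these data known, and the interval covers counting error only.

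**Figure D1:**
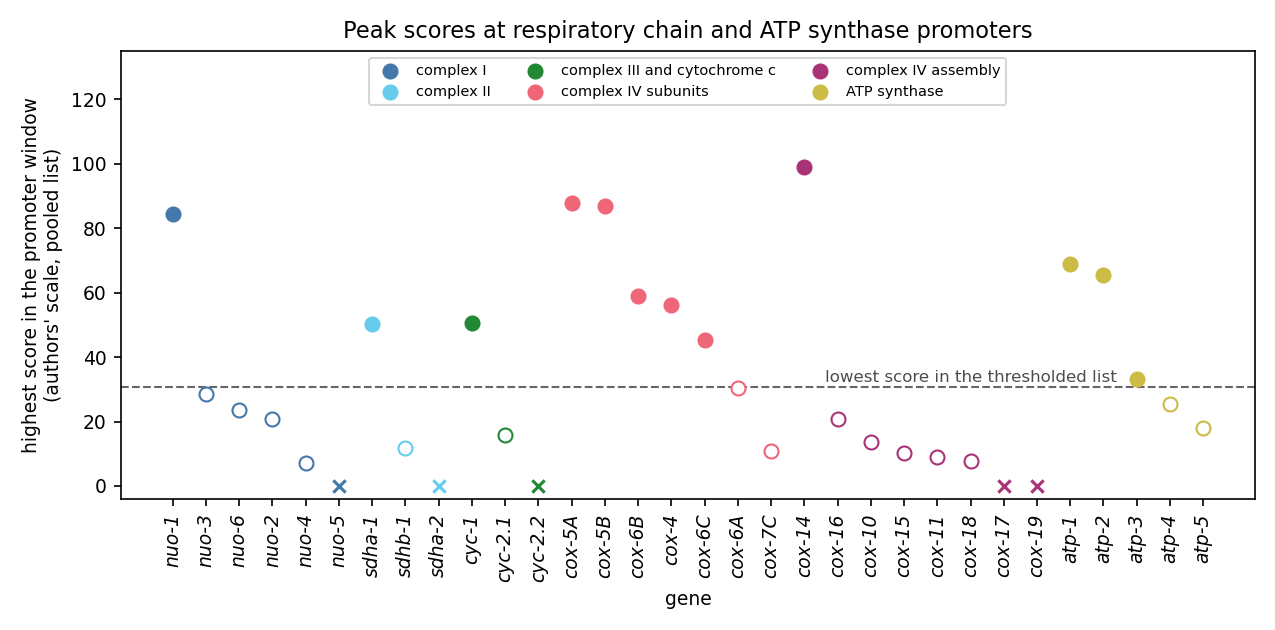
Highest peak score in the promoter window of each of the 32 genes (y axis, the authors' score in the pooled list), ordered by complex and score (x axis). Filled points are the 12 genes with a thresholded summit, open points the 15 with a pooled but no thresholded summit, crosses on the baseline the 5 with no summit, and the dashed line is the lowest thresholded score, 30.8. The filled points run from 33.3 at atp-3 to 98.8 at cox-14.

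Scores are the authors' own signal values per peak and were read within a list. In the thresholded list they ran from 30.8 to 510 over all peaks. The 12 members had a median score of 62.1, with quartiles of 50.4 and 84.9, and all 1781 genes with a thresholded promoter summit had a median of 43.7, with quartiles of 36.0 and 56.5. The 257 highest peaks held 5 of the 12 member peaks, and 13.3% of all genes with a summit had one there. The 1285 highest held 11 of the 12, against 57.7% of those genes.

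Complex IV, which passes electrons to oxygen, had the most members with a peak. It is also the largest group, with 7 structural subunits and 8 assembly factors. Structural subunits had a thresholded summit at 5 of 7 genes (71.4%, beside the 8.92% of all genes). The peak of cox-5A, at chrIII:12904994-12905357, scored 87.7 and ranked 94 of the 2570. Its replicate scores were 39.6 in replicate 1 and 46.6 in replicate 2, ranks 93 and 164 of 30000, so it was near the top of each list. The summit lay in intergenic sequence at -315 bp from the start, in no other gene's window.

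The peak of cox-5B, at chrI:9788484-9788847, scored 86.9 and ranked 99, with its summit at -59 bp from the upstream one of its 2 starts. Replicate 1 gave 42.8 and replicate 2 gave 42.7, ranks 68 and 244. The gene's upstream neighbour is the alpha-tubulin gene tba-1, on the other strand, 1100 bp away. The peak of cox-4, at chrI:13659400-13659763, scored 56.2 with its summit at -454 bp, the farthest from its start of the 12. That summit lay in an intron of an annotated pseudogene. The cox-4 peak scored 25.3 in replicate 1 and 30.3 in replicate 2.

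The cox-6B gene is annotated over chrIII:2699663-2786859, with a distant start at 2699663 and another at 2786202, just ahead of its end. Its thresholded peak, at chrIII:2785863-2786226, scored 58.9 and lay at -157 bp from the second of these, inside an intron of the longer transcript. The same summit fell in the windows of Y71H2AM.20 and of nduc-2, which is named for a complex I subunit. Replicate 1 gave 35.5 (rank 143) and replicate 2 gave 23.8 (rank 1634), so it stood higher in replicate 1 than in replicate 2. The distant start had a pooled summit at -721 bp with a score of 29.9, below the threshold.

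The peak of cox-6C, at chrIV:126175-126538, scored 45.4 and was shared with the divergent neighbour grld-1. It scored 10.03 in replicate 1 (rank 4004) and 34.8 in replicate 2 (rank 527), so it was among the 2570 highest in replicate 2 but not in replicate 1. Its summit, at -374 bp, lay in an exon of the non-coding RNA gene F29C4.9. The structural subunits without a thresholded summit were cox-6A and cox-7C. The pooled summit of cox-6A scored 30.4, at rank 2636 just below the 2570 kept, and that of cox-7C scored 10.7.

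Among the complex IV assembly factors, which insert haem and copper or help the subunits come together, 1 of 8 had a thresholded summit (12.5%), a share near the 8.92% of all genes. That gene, cox-14, had the highest score of all members, 98.8, at rank 66. Its peak lies at chrIII:10218599-10218962, and the yeast protein of this name acts in complex IV assembly. Replicate 1 gave 34.1 (rank 165) and replicate 2 gave 62.1 (rank 58). The summit stood at -161 bp in the 295 bp between cox-14 and the divergent gene rde-4, which acts in RNA interference, and it was closer to the start of rde-4. Where each summit counted only for its closest start, the assembly factors therefore had 0, and cox-6B was not called either. That count used no promoter window, so summits at any distance were taken.

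The other assembly genes had low scores or none. In the pooled list, cox-16 scored 20.8, cox-10, the haem A pathway farnesyltransferase gene, 13.7, and cox-15, which acts in the next step of that pathway, 10.1. The copper-delivery gene cox-11 scored 8.87 and cox-18, which inserts a complex IV subunit into the membrane in yeast, 7.90. The pooled list had a median of 10.5. The copper chaperone gene cox-17 and its relative cox-19 had no summit in any of the lists.

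The ATP synthase had thresholded summits at 3 of 5 genes (60%, exact 95% interval 14.7 to 94.7), beside 8.92% of all genes. The interval is wide and covers counting error only. The alpha subunit gene atp-1 had a peak at chrI:12652069-12652432 with a score of 68.8, and the beta subunit gene atp-2 had one at chrIII:5227988-5228351 with a score of 65.3. These subunits form the catalytic head of the enzyme. For atp-1 the replicate scores were 24.7 and 46.2, ranks 493 and 168. For atp-2 they were 23.6 and 41.8, ranks 558 and 267. Both genes stood higher in replicate 2 and within the 2570 highest of each list. The summit of atp-1, at -26 bp, was shared with mcrs-1, and that of atp-2, at -247 bp, with C34E10.10 and C34E10.12.

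The gene of the stalk protein OSCP, atp-3, had the lowest thresholded score of the members, 33.3, at rank 2145. It scored 8.40 in replicate 1 (rank 5363) and 25.7 in replicate 2 (rank 1342), so it was outside the 2570 highest peaks of replicate 1. The summit, 15 bp upstream of the outermost of its 4 starts, was shared with F27C1.2. The pooled summits of atp-4 and atp-5, for smaller stalk subunits, scored 25.5 and 18.1, below the threshold.

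Complexes I, II and III, the last counted with cytochrome c, had a thresholded summit at 1 of 6, 1 of 3 and 1 of 3 members, beside 8.92% of all genes, and counts of 1 are too small to read against that share. At complex I this was nuo-1, the gene of the NADH-binding subunit, among 6 members. Its peak, at chrII:11097369-11097732, scored 84.3 and ranked 112, with replicate scores of 38.03 and 45.2 at ranks 112 and 187. The summit, at -286 bp, was shared with the divergent ribosomal protein gene rpl-36.A and lay in exons of 2 non-coding RNA genes. Pooled scores at the other members were 28.6 at nuo-3, 23.6 at nuo-6, 20.9 at nuo-2 and 7.23 at nuo-4, and nuo-5 had no summit. Without replicate 1, when the 2570 highest peaks of replicate 2 were used, nuo-3 was called too and the count was 2, beside 9.05% of all genes.

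At complex II the flavoprotein gene sdha-1, the only member on the X chromosome, had a peak at chrX:8546026-8546389 with a score of 50.3, of 3 members. It scored 19.4 in replicate 1 and 32.9 in replicate 2, ranks 1005 and 661, and its summit lay at -187 bp in no other window. The second flavoprotein gene, sdha-2, had no summit in any list within the window, and the iron-sulphur subunit gene sdhb-1 had a pooled score of 11.8.

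In the group of complex III and cytochrome c, cyc-1, which encodes cytochrome c1, had a peak at chrI:8024536-8024899 with a score of 50.4, also 1 of 3. The replicate scores were 18.6 and 30.9, ranks 1126 and 805, and the summit lay at -296 bp, in no other window. Of the cytochrome c genes, cyc-2.1 had a pooled score of 15.8 and cyc-2.2 had no summit in any list.

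Replicates were compared by the highest peak of each that overlapped the thresholded peak. All 12 member peaks overlapped one among the 2570 highest of replicate 2, and 10 did so in replicate 1, where cox-6C and atp-3 fell outside. Over the 1389 thresholded promoter peaks these shares were 83.9% and 69.3%, and 55.3% in both. By summit in the window, 14 members were called from the 2570 highest peaks of replicate 2, where 9.05% of all genes were, and 10 from those of replicate 1, where 7.81% were. All 10 were called in both replicates, where 5.21% of all genes were called, and cox-6A and nuo-3 were added to the 12 in replicate 2. Replicate numbers follow the ce11 lists: scores at equal rank matched the ce10 list of the other number, to a median of 0.219% and 0.340%, so which library each number stands for could not be settled.

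**Figure D2:**
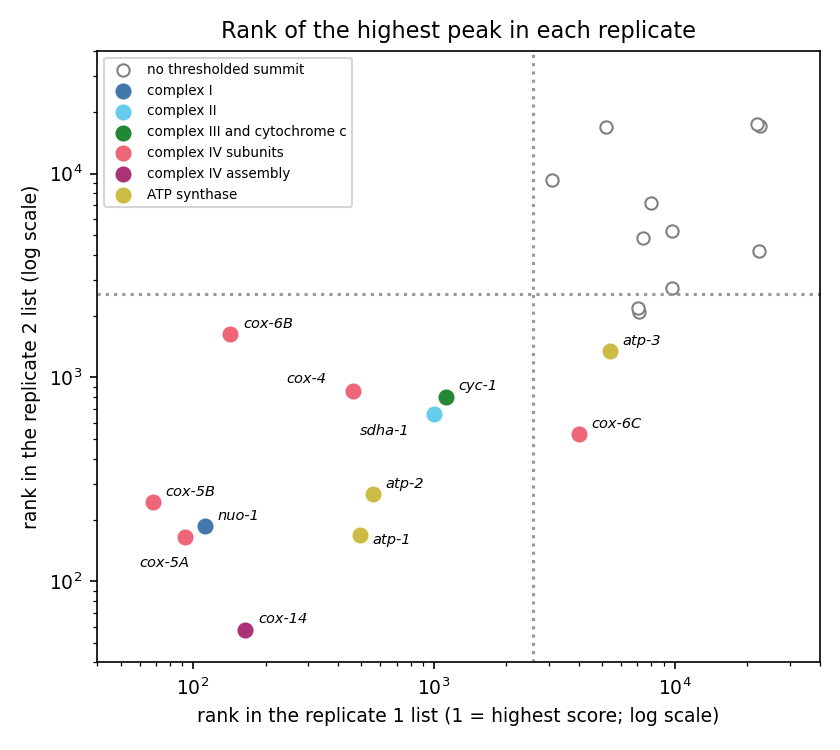
Rank of the highest peak at each gene in the replicate 1 list (x axis) and the replicate 2 list (y axis), on log scales, where 1 is the highest score. Filled points are the 12 genes with a thresholded summit, by complex; open points are genes without one that had a summit in both lists; dotted lines mark rank 2570. Of the 12, only cox-6C and atp-3 lie beyond the line in replicate 1, and none does in replicate 2.

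The replicate lists also describe the 15 members with a pooled but no thresholded summit. Each list had a summit in the window of 25 of the 32 members, beside 40.5% of all genes in replicate 1 and 41.4% in replicate 2, and these lists, like the pooled one (27 members, 84.4%), mix peaks and background. The medians of all peaks were 4.28 in replicate 1 and 7.03 in replicate 2, so scores are not on a common level between them. At cox-6A the scores were 6.92 in replicate 1 and 21.3 in replicate 2, and at nuo-3 they were 6.95 and 21.0. At cyc-2.1 they were 3.15 and 15.3, below the median of replicate 1 and above that of replicate 2. These were different summits, at 145 bp from a start in replicate 1 and -144 bp in replicate 2. At cox-16 the scores were 11.6 and 9.56, and at atp-5 8.61 and 6.53, the latter from summits at -235 bp and -410 bp. No summit was listed in replicate 1 for sdhb-1 and cox-18, or in replicate 2 for cox-15 and nuo-4, which were among the lower pooled scores.

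By chromosome, summits were at 5 of 10 members on chromosome I, 1 of 4 on II, 4 of 7 on III, 1 of 5 on IV, 0 of 5 on V and the single member on X. Over all genes the share was highest on chromosomes III (13.1%) and I (11.8%) and lowest on V (5.05%). It was 8.29% on II, 8.72% on IV and 9.996% on X. The member counts on II, IV, V and X are too small to read against these shares. Differences between chromosomes were not tested.

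Every thresholded member summit lay upstream of its start. The distances had a median of -217 bp and ran from -454 bp at cox-4 to -15 bp at atp-3. Over all 1781 genes with a thresholded summit the median was -245 bp and 93.7% were upstream, with 72.8% within 500 bp upstream. With a window of 500 bp upstream all 12 members were therefore still called, while the share of all genes fell to 7.11%. The 1285 highest-scoring peaks called 11 members and 5.15% of all genes, support in each replicate 10 and 5.14%, and any overlap of peak and window 13, with cyc-2.1 added, and 9.74%. With 2000 bp upstream, cyc-2.1 and sdha-2 were added, for 14 members and 11.7% of genes. With closest starts, taken at any distance instead of in a window, there were 10 and 10.7%. The window was shared with another gene for 7 of the 12 (58.3%) and for 891 of the 1781 genes with a summit, so those peaks cannot be given to the member alone.

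**Figure D3:**
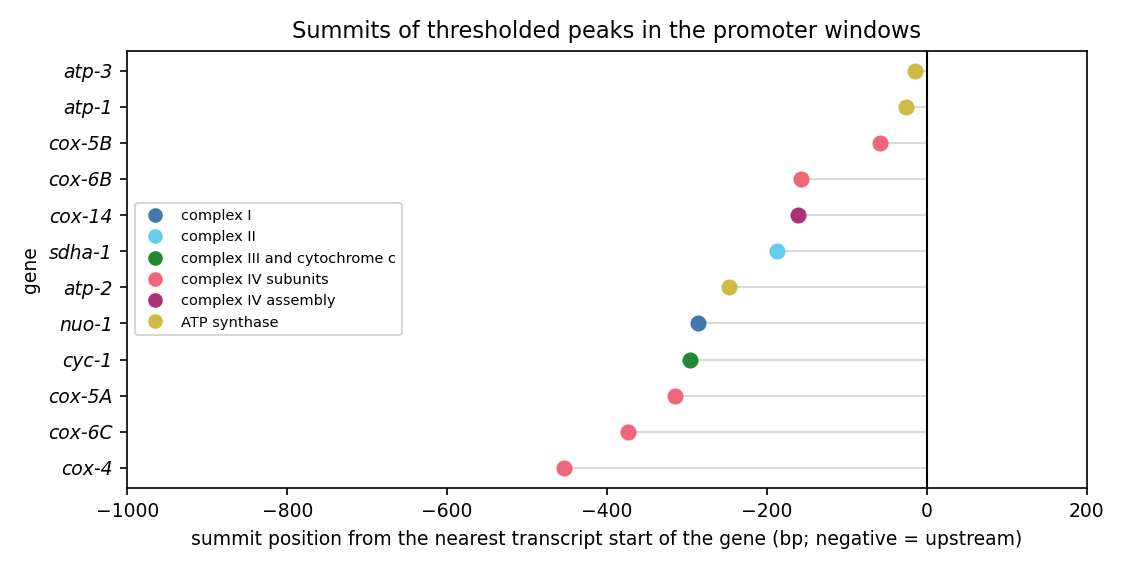
Position of the thresholded summit relative to the nearest annotated start of each of the 12 genes (x axis, bp, with negative values upstream), over the whole width of the promoter window; genes are on the y axis, coloured by complex. All 12 summits lie upstream, within 454 bp of the start.

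Calls differed with the arrangement of a gene and its nearest upstream protein-coding neighbour. Of 16 members with a neighbour on the other strand (for cox-6B, taken at its distant start), 9 had a thresholded summit (56.3%), and of 16 with a neighbour on the same strand, 3 did (18.8%): cox-4, cyc-1 and sdha-1. Over all genes the shares were 13.2% and 5.33%. No limit was set on the distance to the neighbour. It was 13752 bp for cox-5A and 1100 bp for cox-5B, whose summits lay in no other gene's window. The difference between the arrangements was not tested. A close run was then defined, after these neighbours were seen, as genes on the same strand with gaps under 300 bp, a spacing found within operons. In such runs, downstream of another gene, were 11 members, and 0 of them had a thresholded summit in their own window, beside 4.70% of the 2509 genes so placed. Of the other 21 members 12 had one (57.1%), beside 9.52% of genes. The 0 depended on the limit: with same-strand gaps under 500 bp, 2 of 13 members had a summit (15.4%), beside 5.26% of genes. These were cyc-1 and sdha-1, with gaps of 457 bp and 423 bp.

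The gene at the upstream end of the run had such a summit for 6 of the 11 (54.5%), beside 21.6% of all genes so placed. For cox-11 it was lin-54, whose peak, shared with rpl-12, scored 132.8. For cyc-2.1 it was the ribosomal protein gene rpl-20, with 102.03, at a peak shared with Y17G9B.5. For cox-18 it was Y55F3AR.2, with 70.9, at a peak shared with cct-8. For cox-15, which follows cchl-1, the gene at the end of the run was rpn-9, a proteasome subunit gene, with 69.8. That peak was shared with T06D8.9. For nuo-4 it was syf-2, with 43.5. For sdha-2 it was ndua-13, a complex I subunit gene by name, with 39.6, at a peak shared with kbp-5. Shared peaks cannot be given to the first gene of the run alone. The genes at the upstream end for atp-4 (alh-4), cox-17 (ubc-20), cox-19 (F45H11.8), nuo-2 (T10E9.14) and nuo-5 (Y45G12B.2) had none. Counting a summit at the gene or at the end of its run gave 18 of 32 members (56.3%), where the same count over all genes gave 11.5%. The files do not say which genes are cotranscribed, so a close run is a description of spacing.

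**Figure D4:**
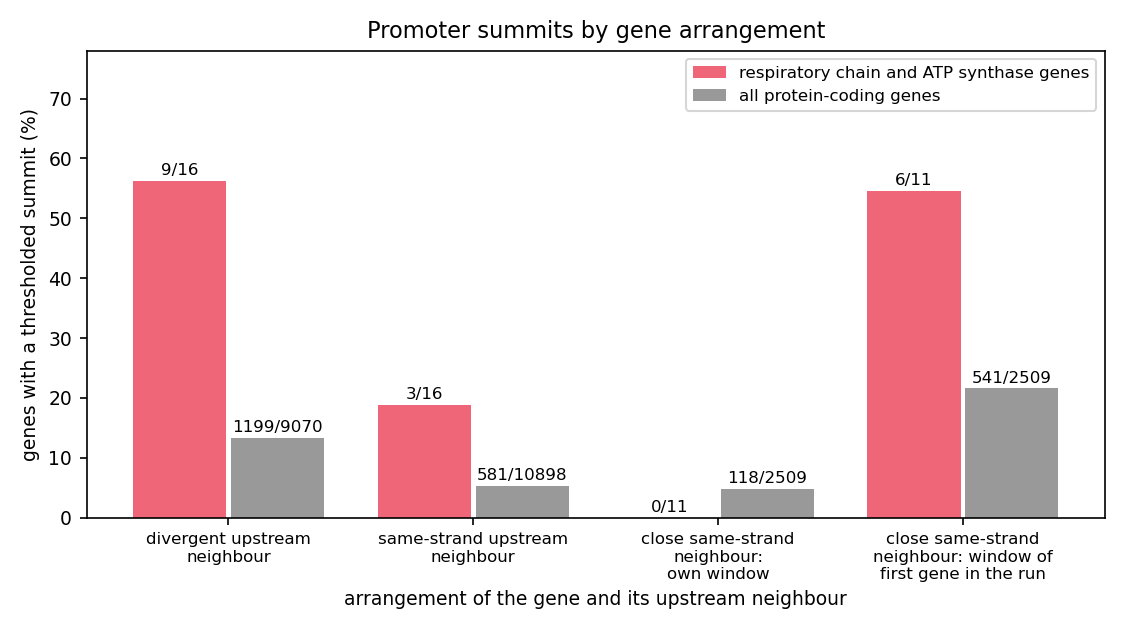
Percent of genes with a thresholded summit (y axis) by the arrangement of the gene and its upstream neighbour (x axis), for the 32 members (red) and all nuclear protein-coding genes (grey), with counts above the bars. Close neighbours are on the same strand with a gap under 300 bp, a limit chosen after the neighbours were seen. No member in a close run had a summit in its own window, and 6 of 11 had one at the upstream end of the run.

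The other 9 members without a thresholded summit were not downstream in a close run. Of all 20 members without one, the nearest thresholded summit was 1093 bp to 50462 bp from a start, with a median of 12669 bp, and 2 had it within 2000 bp, cyc-2.1 and sdha-2. The number of annotated starts, which sets the number of windows, was 1 for 24 members. Of these 9 had a summit (37.5%), and of the 8 with more starts 3 did (37.5%). Over all genes the shares were 7.18% with 1 start and 13.8% with more.

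Genes of the same complexes under other names were then counted, together with related genes such as sco-1 and mai-1. Of these 20 genes, 7 had a thresholded summit (35%), beside 8.92% of all genes. They were sco-1 (87.1), which acts in copper delivery to complex IV, mai-1 (67.0), a relative of the ATP synthase inhibitor, and ucr-2.1 (60.8) and ucr-1 (34.8), core protein genes of complex III. The others were the ATP synthase subunit genes asb-2 (53.3) and asg-2 (49.3) and the complex II cytochrome b gene mev-1 (37.99). Those without one included gas-1, nuaf-1, isp-1, sdhd-1, asb-1, asg-1 and hpo-18.

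Complex I genes whose symbols start with ndua, ndub, nduc, nduf, ndus or nduv, a list added after the members' neighbours were seen, had a thresholded summit at 9 of 25 (36%), beside the same 8.92%. The highest was ndub-8, with 93.2, followed by ndua-8 (60.1), nduc-2 (58.9, the peak it shares with cox-6B) and nduv-3 (57.2). The rest, ndua-13, nduf-11, ndua-5, nduf-7 and ndus-8, ran from 31.5 to 39.6. Without replicate 2 the count was 5, beside 7.81% of all genes, and with support among the 2570 highest peaks of each replicate it was 4, beside 5.14%. The coenzyme Q and adenine nucleotide carrier genes make the mobile electron carrier and exchange ADP for ATP. They had a thresholded summit at 0 of 12, beside 8.92% of all genes, and 12 genes are too few to read against that share. The exact interval reaches 26.5% and covers counting error only. Without replicate 1 the count was 1, ant-1.1, beside 9.05%.

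**Figure D5:**
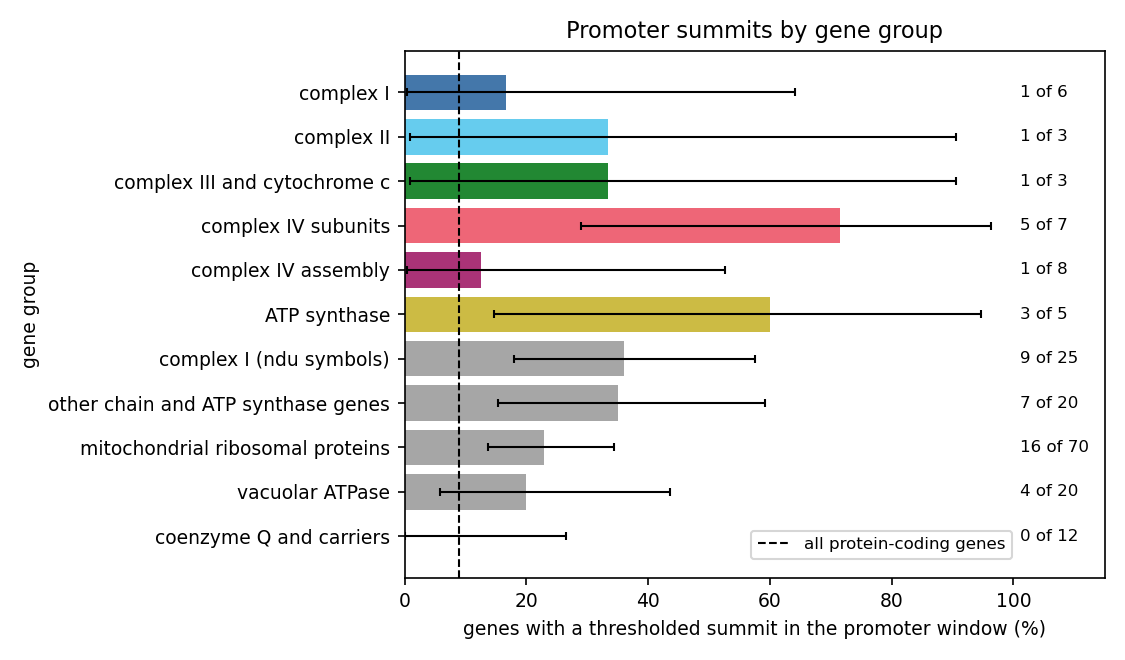
Percent of genes with a thresholded summit in the promoter window (x axis) by gene group (y axis), with exact 95% binomial intervals as error bars and counts at the right; the dashed line is the 8.92% of all nuclear protein-coding genes. Complex IV subunits have the highest share, 5 of 7, and the intervals of most groups are wide.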

How the data were processed

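ChIP-seq peaks were used as deposited. Notes with the files call the thresholded peaks optimal; the other lists were made, per those notes, from alignments and a control (not analysed here), before IDR was applied. The aligner, the peak caller and the threshold were not given in the sources used here. For every peak the authors deposited a score (signal value) and a −log10 q-value, which was at its maximum for 67.3% of thresholded peaks and was not used. The thresholded list held exactly the 2570 highest-scoring pooled peaks. No file gives reads, so depth is unknown. The labels give fragments of 150 to 350 bp.

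Gene models were from Ensembl release 115 on WBcel235 (29314 distinct protein-coding starts on 6 chromosomes). Peak ends fell within its chromosome lengths, and ce10 lists were used only for scores by rank. Summits were placed in windows with Python 3.11.15, pandas 2.3.3, numpy 2.4.6 and scipy 1.17.1, and the placement was tested on simulated summits. Named genes were every member with a thresholded or pooled summit, and the 5 without one and the genes of other lists and runs were named after their values were seen; the 5 sequences are those of the highest scores off chromosome I. With 1 group and 2 replicates no test between conditions was possible. The members and lists were chosen with earlier results of these data known. Alternatives changed the window, the assignment, the peak set and the overlap. The assignment to nearest starts used no window and no distance limit, for members and for all genes.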

Additional observations from a re-analysis of the deposited data

How the results depend on the processing

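The count of 12 members with a thresholded summit lay between 10 and 14 under every alternative planned, while the share of all genes moved with the setting. With a window of 500 bp upstream there were 12 members and 7.11% of genes, and with 2000 bp 14 and 11.7%. With nearest starts, where no window was used, there were 10 and 10.7%. The 1285 highest-scoring peaks gave 11 and 5.15%, and support in each replicate 10 and 5.14%. Any overlap of peak and window gave 13 and 9.74%, and at least 50% of the peak in the window 12 and 8.92%. Leaving out a replicate gave 10 to 14 members and 7.81% to 9.05% of genes. In all 9 of these alternatives 8 members were called: atp-1, atp-2, cox-4, cox-5A, cox-5B, cyc-1, nuo-1 and sdha-1. Counting the upstream end of close runs, chosen after seeing the data, gave 18.

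Counts of few genes moved more. Complex II had 2 of 3 with 2000 bp, beside 11.7% of all genes. Complex III and cytochrome c had 2 of 3 with 2000 bp, and 2 of 3 with any overlap, beside 9.74%. Complex IV assembly had 0 of 8 with nearest starts, beside 10.7%. Complex IV structural subunits had 4 of 7 with nearest starts, with support in each replicate (5.14% of all genes) and without replicate 2 (7.81%). Without replicate 1 they had 6 of 7, beside 9.05%. The ATP synthase had 2 of 5 in the 1285 highest peaks (5.15% of all genes), with support in each replicate (5.14%) and without replicate 2 (7.81%). Leaving out a replicate gave 1 to 2 of 6 for complex I and 0 to 1 of 12 for coenzyme Q and carrier genes. For the ndu complex I genes it gave 5 to 10 of 25, where 7.81% to 9.05% of all genes were called. All values of the coenzyme Q and carrier, vacuolar ATPase, mitochondrial ribosomal and ndu genes under alternatives were chosen after seeing the data. Coenzyme Q and carrier genes had 1 of 12 with 2000 bp, beside 11.7% of all genes. Vacuolar ATPase genes had 2 of 20 with nearest starts, no higher than the 10.7% of all genes. They had 2 in the 1285 highest peaks, beside 5.15%, and 2 with support in each replicate, beside 5.14%. Mitochondrial ribosomal protein genes had 9 of 70 in the 1285 highest, beside 5.15% of all genes, and 11 with support in each replicate, beside 5.14%. The ndu genes had 5 of 25 with nearest starts, 4 in the 1285 highest and 4 with support in each replicate, beside the same shares of all genes. The cause of these shifts was not tested. No paired analysis was possible because there is only 1 group. Depth per peak is unknown, so a missing peak does not show that binding is absent.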

Other observations

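Genes of the mitochondrial ribosome, which translates the respiratory subunits encoded in mitochondrial DNA, had a thresholded promoter summit at 16 of 70 (22.9%, exact 95% interval 13.7 to 34.4), beside 8.92% of all genes. The highest scores were those of mrpl-45 (95.1), mrpl-49 (80.2), mrps-7 (79.2) and mrpl-17 (66.7). Each of these peaks also lay in the window of another gene, Y119D3B.12, the cytoplasmic ribosomal protein gene rpl-28, Y57G11C.3 and vbh-1 in that order, and cannot be given to the named gene alone. The difference from the 37.5% of the respiratory chain and ATP synthase genes was not tested, and the interval covers counting error only.

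The vacuolar ATPase, a rotary proton pump of other membranes, had summits at 4 of 20 genes (20%, exact 95% interval 5.73 to 43.7), beside 8.92% of all genes. These were vha-8, with 102.4 and a peak shared with C17H12.2, and vha-12, vha-1 (shared with sqv-3) and vha-15, with scores of 31.3 to 52.2. With the 2570 highest peaks of replicate 2 the count was 3, beside 9.05% of all genes, and with those of replicate 1 it was 5, beside 7.81%. With nearest starts it was 2 of 20, beside 10.7%. The interval covers counting error only, and 20 genes are too few to read against these shares.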
